A study of Sus scrofa with 6 samples.

Results

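The TRIM genes of the pig brain are described here, as measured by RNA sequencing in 3 Rongchang pigs and 3 wild boars. Members are all genes whose symbol is TRIM followed by a digit, with 1 row per symbol. Of 54 such symbols in the table used to name Ensembl identifiers, 32 had an identifier among the 18225 genes listed, and 25 of these 32 reached at least 1 FPKM (fragments per kilobase of transcript, scaled to library size) in at least 3 libraries and were tested between the breeds. The other 22 symbols were not analysed here, among them TRIM3, TRIM11, TRIM28, TRIM38 and TRIM56. No measured value was used to choose the members.

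TRIM proteins share a RING domain, B-box zinc fingers and a coiled coil, and most of them are ubiquitin ligases that differ in the domain at their carboxyl end. Many act in innate immunity, where they restrict viruses directly or attach ubiquitin to sensors and adaptors such as RIG-I and MDA5, and several of these are induced by interferon. A separate set is known from neurons, where its proteins act on neurofilaments, microtubules, the netrin receptor DCC and vesicle fusion. Others are chromatin-bound corepressors or belong to muscle.

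Rongchang is a domesticated Chinese pig breed. The 3 Rongchang pigs and the 3 wild boars carried no stated treatment, all animals were 210 days old, and the tissue is labelled brain with no region. Each library comes from 1 animal, and the labels do not say how the animals were related, housed or chosen. The title of the series asks how the immune response differs between domesticated pigs and wild boars.

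The libraries looked like brain by their markers. The 6 neuron markers with an identifier summed to between 1735 and 2557 FPKM per library, against 37.6 to 84.4 for 4 microglia markers and 18.2 to 27.9 for 3 endothelial markers. Oligodendrocyte markers summed to between 1230 and 2027 FPKM, astrocyte markers to between 947 and 1216, and blood and lymphocyte markers to between 61.2 and 278. The oligodendrocyte sum was above the neuron sum in Rongchang 1 and wild boar 1. No marker was listed at 0. Depth is unknown for these values. Rongchang 2 and wild boar 2 lay away from the remaining 4 libraries on the first principal component, which held 38.8% of the variance. The difference of the median gene, wild boar less Rongchang, was −0.13 on the log2(FPKM + 1) scale, and 77.9% of the genes tested lay below 0. A TRIM gene that lies slightly lower in wild boar is therefore close to the typical gene, and differences are also given after each library was scaled to the same median. In whole tissue, fewer cells of a type and less RNA per cell cannot be told apart.

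TRIM genes were moderately abundant in brain. Summed over the 32 members they made up 245, 303 and 275 FPKM in Rongchang 1, 2 and 3 and 221, 297 and 260.0 FPKM in wild boar 1, 2 and 3. In both breeds the library numbered 2 had the highest sum and the library numbered 1 the lowest, and the ranges of the breeds overlapped. The 4 most abundant members, TRIM37, TRIM44, TRIM9 and TRIM2, held 56.4% of the summed level. At the other end, 7 members had a mean below 1 FPKM and no member was listed at 0 in any library.

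**Figure D1:**
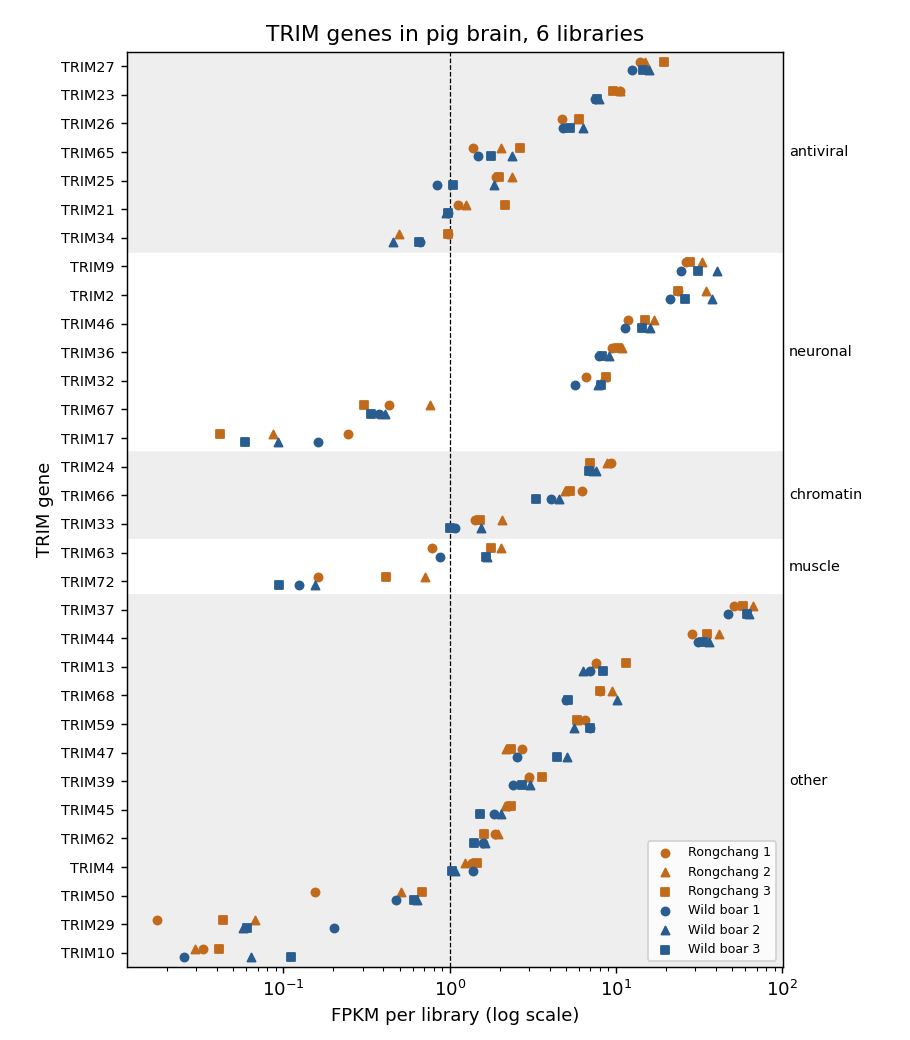
FPKM of the 32 TRIM genes in each of the 6 libraries on a log axis, grouped by role and ordered by mean level. Colours mark the breed, symbols mark the animal number, and the dashed line marks 1 FPKM. Levels run from TRIM37 at a mean of 57.8 FPKM to TRIM10 at 0.0505 FPKM.

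The neuronal members were among the most abundant. TRIM9, a neuron-specific ligase that binds DCC and SNAP25, stood at 26.5, 32.7 and 27.9 FPKM in Rongchang and 24.4, 40.5 and 31.3 FPKM in wild boar. TRIM2, which ubiquitinates the neurofilament light chain, stood at 23.7, 34.7 and 23.5 FPKM and at 21.0, 37.8 and 25.8 FPKM. For both genes the libraries numbered 2 were the highest in each breed and the breeds overlapped. Their ratio within a library varied little, since TRIM2 was between 0.826 and 1.06 times TRIM9 in all 6 libraries.

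TRIM46, which bundles microtubules at the axon initial segment, stood at 11.9, 16.9 and 14.9 FPKM in Rongchang and 11.4, 15.9 and 14.3 FPKM in wild boar. TRIM36, a microtubule-associated ligase, had a mean of 9.29 FPKM and TRIM32, known from neural progenitors and from a muscular dystrophy, one of 7.55 FPKM. These 5 genes lay between the 65.2 and 89.5 percentile of all genes listed. The last 2 neuronal members were scarce. TRIM67, the closest relative of TRIM9, had a mean of 0.436 FPKM, so that TRIM9 was 43.3 to 99.2 times higher within a library, and TRIM17, known from neuronal cell death, had a mean of 0.114 FPKM.

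The antiviral and innate immune members with an identifier were less abundant as a group, with a median of 1.94 FPKM over 7 genes against 9.29 FPKM over the 7 neuronal ones. They are 7 of 18 antiviral genes listed, against 7 of 9 neuronal ones, so most of the antiviral class is not covered. TRIM27, a regulator of innate signalling that is also widely expressed outside immune cells, led them at 13.98, 14.9 and 19.4 FPKM in Rongchang and 12.5, 15.8 and 14.6 FPKM in wild boar. TRIM26, which acts on the transcription factor IRF3, stood at 4.71, 5.89 and 6.01 FPKM and at 4.82, 6.31 and 5.30 FPKM. Both genes overlapped between the breeds. TRIM65, a ligase for the RNA sensor MDA5, had a mean of 1.94 FPKM and its highest value, 2.63 FPKM, in Rongchang 3.

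The members best known as interferon-induced were at the low end. TRIM25, a ligase in the RIG-I pathway, had a mean of 1.66 FPKM, and TRIM21, the cytosolic antibody receptor, one of 1.23 FPKM. TRIM34, a relative of the retroviral restriction factor TRIM5, stood at 0.972, 0.498 and 0.975 FPKM in Rongchang and 0.659, 0.454 and 0.658 FPKM in wild boar. It was lowest in the library numbered 2 of each breed, below the level needed for a test, and reads of its close relatives may be shared with it. Over the members with an identifier, summed antiviral over summed neuronal level was 0.440, 0.359 and 0.499 in the Rongchang libraries. In the wild boars it was 0.405, 0.319 and 0.363, with overlap between the breeds.

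Among the corepressors that bind modified histones, TRIM24 stood at 9.28, 8.83 and 6.94 FPKM in Rongchang and 7.02, 7.55 and 6.88 FPKM in wild boar. TRIM33, its relative in SMAD signalling, stood at 1.42, 2.06 and 1.53 FPKM and at 1.08, 1.54 and 1.0001 FPKM. TRIM24 was 4.28 to 6.88 times TRIM33 within a library. The breeds overlapped for both genes.

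Of the muscle members, TRIM63 (MuRF1, a ligase of muscle wasting) stood at 0.784, 2.03 and 1.78 FPKM in Rongchang and 0.872, 1.68 and 1.66 FPKM in wild boar. In both breeds the library numbered 1 was the low one. TRIM72 (MG53, a membrane repair protein) stood at 0.162, 0.708 and 0.416 FPKM and at 0.125, 0.155 and 0.0945 FPKM, levels too low to enter the test. Every wild boar was below every Rongchang pig, as for 11.4% of all genes tested. Rongchang 1 (0.162 FPKM) and wild boar 2 (0.155 FPKM) were nearly equal. The skeletal muscle actin gene ACTA1, the only muscle marker with an identifier, was at 45.7 FPKM in Rongchang 2 and 47.3 FPKM in wild boar 2 and between 4.23 and 16.9 FPKM in the other 4 libraries. Its part in the level of these 2 genes was not tested.

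The most abundant members of all have broader roles. TRIM37, a peroxisomal and centriolar ligase mutated in mulibrey nanism, stood at 51.2, 66.4 and 57.9 FPKM in Rongchang and 47.1, 63.2 and 61.1 FPKM in wild boar. TRIM44, an atypical member that lacks the RING domain, stood at 28.5, 41.7 and 35.2 FPKM and at 31.2, 36.0 and 33.5 FPKM. TRIM13, a ligase of the endoplasmic reticulum, stood at 7.59, 7.63 and 11.5 FPKM and at 6.99, 6.35 and 8.40 FPKM. In all 3 the breeds overlapped, and TRIM37 lay at the 94.5 percentile of all genes listed. TRIM37 overlaps the coding gene PPM1E in RefSeq, so its value may hold reads of that gene. TRIM59 (mean 6.27 FPKM), TRIM39 (2.95 FPKM), TRIM62 (1.68 FPKM) and TRIM4 (1.26 FPKM) were lower, and TRIM50 (0.512 FPKM), the epithelial TRIM29 (0.0746 FPKM) and the erythroid TRIM10 (0.0505 FPKM) were under 1 FPKM in every library.

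The libraries numbered 2 differed from their breed in the same way for many members. Wild boar 2 was the highest wild boar for 20 of the 25 members tested, against 47.9% of all genes tested, and in 12 of the 25 the library numbered 2 was the highest in both breeds, against 28.5% of all genes. These 12 included 4 of the 5 neuronal members and 2 of the 6 antiviral ones. Wild boar 1 was the lowest wild boar for 16 of the 25 members, among them all 5 neuronal and 5 of the 6 antiviral ones, against 37.4% of all genes tested. The summed neuron markers were 1819 FPKM in Rongchang 1 and 1735 FPKM in wild boar 1, the lowest of each breed, and 2284 FPKM or more in the other 4 libraries. Their part in these levels was not tested.

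**Figure D2:**
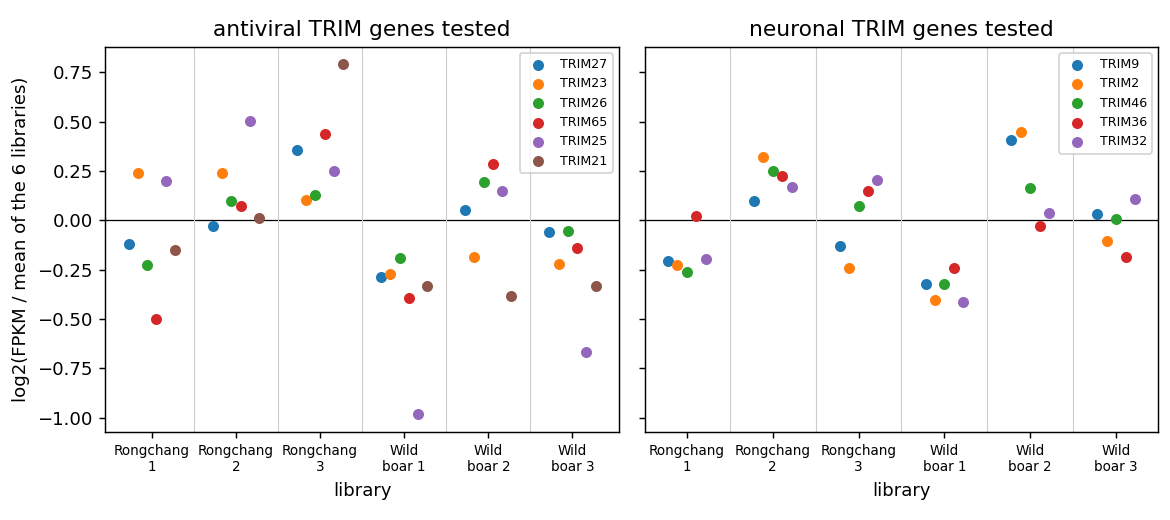
Level of each tested antiviral (left) and neuronal (right) TRIM gene in each library, as log2 of FPKM over the gene's mean of the 6 libraries. All 5 neuronal genes are below their mean in wild boar 1 and above it in Rongchang 2. TRIM23 and TRIM25 are above their mean in all 3 Rongchang pigs, and TRIM21 is below its mean in all 3 wild boars.

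No TRIM gene passed the test between the breeds. Of the 25 tested, 0 had an adjusted p under 0.05 in limma, as did 0.0076% of all 13152 genes in the lower direction and 0% in the higher, and adjusted p for the members ran from 0.789 to 0.986. At an unadjusted p under 0.05, 3 members lay lower in wild boar (background 5.42%) and 1 higher (background 0.578%). The breeds did not overlap for 6 of the 25, all lower in wild boar, where 11.4% of all genes tested were fully lower and 1.12% fully higher. TRIM21 is among these 6 and passed the filter through the Rongchang libraries alone, so its lack of overlap followed from the filter. Leaving the libraries numbered 2 out gave 3 lower (background 8.11%) and 0 higher (0.836%), and scaling each library to the same median gave 0 lower (1.87%) and 1 higher (1.89%). With the animal number as a block, 4 lay lower (16%) and 1 higher (1.41%).

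Each difference below is the wild boar mean less the Rongchang mean on the log2(FPKM + 1) scale. Of the 25 members, 21 lay below 0, close to the 77.9% of all genes that did, and 13 lay below the median gene (50% of all genes). Their median was −0.15, against −0.13 over all genes tested. After median scaling it was −0.02, against 0.02 for all genes, and 13 of 25 lay below 0 (46.4% of all genes).

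**Figure D3:**
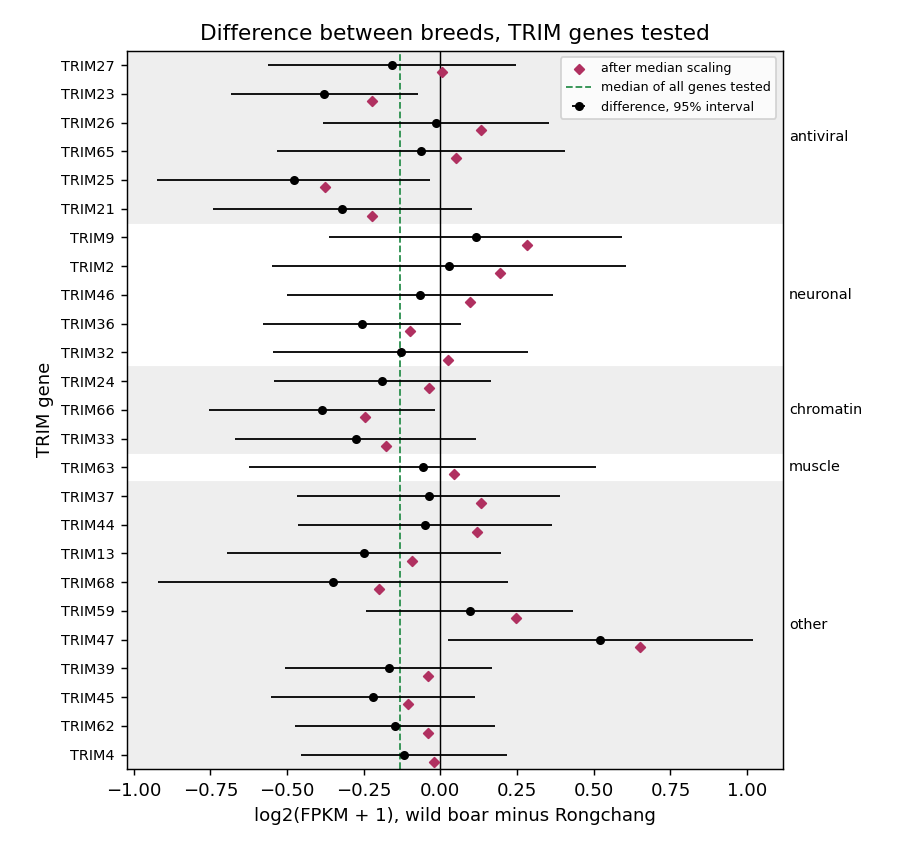
Difference between the breeds for the 25 TRIM genes tested, with 95% intervals (black) and the value after median scaling (red diamonds). The dashed line is the median of all genes tested at −0.13. All 6 antiviral genes lie below 0 before scaling, and 3 of the 6 after it, against 77.9% and 46.4% of all genes tested.

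Within the antiviral class, all 6 members tested lay below 0 (77.9% of all genes), with a median of −0.24, and 4 lay below the median gene (50%). TRIM21 entered the test through the Rongchang libraries alone, so a value below 0 followed from the filter. After median scaling the median was −0.11, and TRIM26, TRIM27 and TRIM65 lay above 0. Within the neuronal class, 3 of 5 lay below 0 and 1 lay below the median gene. Its median was −0.07, and 0.10 after median scaling. Single libraries moved both medians. Without Rongchang 3 the antiviral median was −0.08, next to −0.07 for the neuronal class. The neuronal median was −0.20 without Rongchang 1, 0.04 without Rongchang 2, 0.06 without wild boar 1 and −0.18 without wild boar 2. Whether the classes differ was not tested.

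TRIM23, a ligase that carries an ARF GTPase domain and acts on NF-kappaB signalling and autophagy, showed the clearest separation. It stood at 10.6, 10.6 and 9.63 FPKM in Rongchang and 7.44, 7.88 and 7.68 FPKM in wild boar, or 10.3 ± 0.559 against 7.67 ± 0.220 (SD, n = 3 per breed). Every wild boar was below every Rongchang pig, and the spread within each breed was small. The difference was −0.38 (95% interval −0.68 to −0.07) with an adjusted p of 0.789 in limma, and −0.22 after median scaling. The neighbouring gene PPWD1, which overlaps TRIM23 in the RefSeq table, stood at 1.47 ± 0.224 and 1.19 ± 0.0269 FPKM. Its breeds did not overlap either, as for 11.4% of all genes tested in that direction. PPWD1 differed by −0.17 (adjusted p = 0.857 in limma), against −0.13 for the median gene.

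TRIM25 stood at 1.90, 2.36 and 1.97 FPKM in Rongchang and 0.841, 1.84 and 1.05 FPKM in wild boar. Wild boar 2 came close to the lowest Rongchang pig, while the other 2 wild boars were well below. The difference was −0.48 (95% interval −0.92 to −0.03; adjusted p = 0.789 in limma), −0.66 without wild boar 2 and −0.38 after median scaling. TRIM27 was 6.32 to 9.86 times TRIM25 in the Rongchang libraries and 8.57 to 14.8 times in the wild boars.

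TRIM21 stood at 1.11, 1.25 and 2.14 FPKM in Rongchang and 0.982, 0.948 and 0.982 FPKM in wild boar. The breeds did not overlap, but the gap rested largely on Rongchang 3. The difference was −0.32 (95% interval −0.74 to 0.10; adjusted p = 0.794) and −0.15 without Rongchang 3. TRIM21 entered the test through the Rongchang libraries alone, since all 3 wild boars were below 1 FPKM, and it was the only member to do so.

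The third gene below an unadjusted p of 0.05 was TRIM66, a testis-rich corepressor of the same family as TRIM24 and TRIM33. It stood at 6.25, 4.90 and 5.29 FPKM in Rongchang and 4.06, 4.52 and 3.31 FPKM in wild boar, without overlap. The difference was −0.39 (95% interval −0.75 to −0.02; adjusted p = 0.789) and −0.24 after median scaling. TRIM66 overlaps the ribosomal protein gene RPL27A in the RefSeq table, so its value may hold reads of that gene. All 3 corepressors tested lay below the median gene (50% of all genes), with differences from −0.39 to −0.19. After median scaling TRIM24 was at −0.04 and TRIM33 at −0.18. The corepressor TRIM28 had no identifier.

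TRIM36 was the 1 neuronal member whose breeds did not overlap. It stood at 9.42, 10.9 and 10.3 FPKM in Rongchang and 7.85, 9.11 and 8.18 FPKM in wild boar, with Rongchang 1 just above wild boar 2. The difference was −0.26 (95% interval −0.58 to 0.07; adjusted p = 0.793) and −0.10 after median scaling. TRIM45 also stood apart, at 2.29, 2.15 and 2.32 FPKM against 1.86, 2.03 and 1.51 FPKM. The difference was −0.22 (95% interval −0.55 to 0.11; adjusted p = 0.832), −0.10 after median scaling and −0.14 without wild boar 3.

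**Figure D4:**
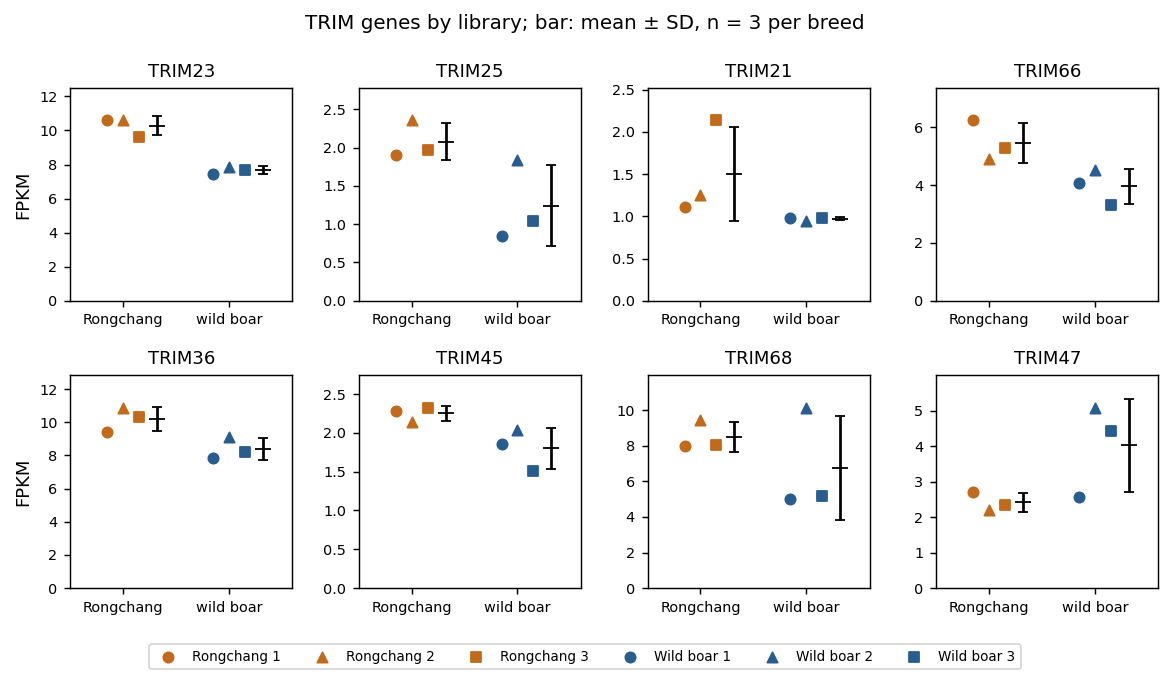
FPKM by library for the 6 tested TRIM genes whose breeds do not overlap and for TRIM68 and TRIM47, with the mean and SD of each breed (n = 3). In TRIM68 wild boar 2 is the highest of all 6 libraries, and in TRIM47 wild boar 2 and wild boar 3 are above all Rongchang pigs.

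TRIM47 was the 1 member higher in wild boar at an unadjusted p under 0.05. It stood at 2.72, 2.19 and 2.34 FPKM in Rongchang and 2.55, 5.08 and 4.44 FPKM in wild boar. Wild boar 1 lay inside the Rongchang range and the other 2 wild boars far above it. The difference was 0.52 (95% interval 0.02 to 1.02; adjusted p = 0.789), 0.65 after median scaling and 0.32 without the libraries numbered 2. Its neighbour TRIM65 differed by −0.06, and TRIM47 over TRIM65 was 1.31 ± 0.585 in Rongchang and 2.13 ± 0.396 in wild boar (SD, n = 3). That ratio overlapped between the breeds, at 1.98 in Rongchang 1 and 1.73 in wild boar 1. The 3 endothelial markers PECAM1, FLT1 and TIE1 summed to 18.2 to 23.4 FPKM in Rongchang and 26.7 to 27.9 FPKM in wild boar, and their part in the TRIM47 level was not tested.

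TRIM68, a ligase first known as an autoantigen and a coactivator of the androgen receptor, had a difference that moved with each of the 3 wild boars. It stood at 8.01, 9.46 and 8.02 FPKM in Rongchang and 4.98, 10.1 and 5.16 FPKM in wild boar. Wild boar 1 and wild boar 3 were far below all Rongchang pigs and wild boar 2 above them. The difference was −0.35 (95% interval −0.92 to 0.22; adjusted p = 0.846) with all libraries and −0.20 after median scaling. It was −0.19 without wild boar 1, −0.64 without wild boar 2 and −0.21 without wild boar 3.

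For the abundant neuronal members the intervals were wide. The difference was 0.12 for TRIM9 (95% interval −0.36 to 0.59), 0.03 for TRIM2 (−0.55 to 0.60), −0.07 for TRIM46 (−0.50 to 0.37) and −0.13 for TRIM32 (−0.55 to 0.29). After median scaling all 4 lay above 0, at 0.28, 0.19, 0.10 and 0.02. For TRIM37 and TRIM44 the differences were −0.04 and −0.05, and 0.13 and 0.12 after median scaling.

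The genes through which the antiviral TRIM proteins act were examined next. Of 27 symbols listed for sensors, adaptors and modifiers, 18 had an identifier and 14 were tested. The list holds older names of RIGI, STING1 and CGAS beside the current ones. Of the genes tested, 12 lay below 0 (77.9% of all genes) and 10 below the median gene (50%). Their median was −0.19, and −0.05 after median scaling. None passed (0 in limma), and 4 lay lower in wild boar at an unadjusted p under 0.05 (background 5.42%). DHX58, the regulatory relative of RIG-I, stood at 3.74, 1.21 and 2.94 FPKM in Rongchang and 0.965, 0.888 and 0.836 FPKM in wild boar (−0.87, adjusted p = 0.784). DHX58 entered the test through Rongchang alone, so a value below 0 and its lack of overlap followed from the filter. It is counted among the 12, the 10 and the 4 above. The kinase MAP3K7 (TAK1) differed by −0.46 and the transcription factor IRF7 by −0.63. RIGI itself, the sensor served by TRIM25, stood at 3.95, 2.51 and 3.97 FPKM and at 3.95, 2.45 and 2.78 FPKM, with overlap.

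Interferon-induced genes outside the TRIM family were set beside TRIM25, TRIM21 and TRIM34. Of 18 such genes listed, 11 had an identifier. Their median level was 4.53, 3.09 and 4.33 FPKM in Rongchang 1, 2 and 3 and 2.62, 2.81 and 2.14 FPKM in the wild boars. The median of all genes tested was also lower in every wild boar, at 7.16, 7.49 and 7.72 FPKM against 6.43, 7.02 and 6.40 FPKM. Rongchang 2 had the lowest interferon-induced median of its breed and the highest TRIM25 level. TRIM34 was likewise lowest in Rongchang 2 within that breed, and TRIM21 was highest in Rongchang 3. Wild boar 2 instead had the highest interferon-induced median of its breed. Within that breed it also had the highest TRIM25 level (1.84 FPKM) and the lowest TRIM34 level (0.454 FPKM). Of the 10 genes tested, 9 lay below 0 (77.9% of all genes) and 9 below the median gene (50%). Their median was −0.45, and −0.31 after median scaling. In limma 0 of them passed, with 3 lower at an unadjusted p under 0.05 (background 5.42%) and 6 lower with the animal number as a block (16%).

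Partners of the neuronal TRIM proteins showed no call. Of 23 genes listed for the netrin response, the axon initial segment and vesicle fusion, 14 were tested, 10 lay below 0 (77.9% of all genes) and 6 below the median gene (50%), with 0 past the threshold and 0 at an unadjusted p under 0.05. The smallest p belonged to the ligand NTN1 (1.58 ± 0.467 against 0.963 ± 0.339 FPKM), the initial segment adhesion molecule NFASC (16.5 ± 4.37 against 11.7 ± 2.80 FPKM) and the glutamate receptor gene GRIA1 (36.4 ± 10.1 against 28.0 ± 6.89 FPKM). With the animal number as a block, NFASC and GRIA1 had unadjusted p of 0.0035 and 0.0065 (adjusted p = 0.228 for both in limma), where 16% of all genes were lower at an unadjusted p under 0.05. Both were lower in wild boar at each of the 3 animal numbers, which the block p already reflects. The labels do not say what a number marks, and the share of all genes with this pattern was not computed. The TRIM9 partner SNAP25, the most abundant, stood at 988 ± 187 and 980 ± 170 FPKM. Of the 8 partners of the corepressors tested, 7 lay below 0 (77.9% of all genes) and 0 had an unadjusted p under 0.05, with SMAD2 at 5.15 ± 0.473 against 4.003 ± 0.818 FPKM.

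Relatives of the family that carry other names were low in brain, with a median of 0.625 FPKM over the 5 with an identifier. PML, the organiser of nuclear bodies, stood at 4.24, 2.89 and 2.99 FPKM in Rongchang and 2.66, 3.22 and 1.94 FPKM in wild boar (−0.28, adjusted p = 0.845). The microtubule-bound MID2 had means of 1.81 and 1.76 FPKM. Its relative MID1 was below 1 FPKM in all libraries, as were RNF207 and BSPRY.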

How the data were processed

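The deposited table holds 1 value per gene and library, taken as FPKM. Its header names no unit, which was judged from the values and from the tools in the submitters' processing notes (Cuffdiff, Cufflinks 2.2.1 and TopHat2 2.0.11, with no role or order). The genome build, the annotation and the strand setting are not stated, and no coordinates are given. Poly(A)-selected, dUTP-stranded libraries were read as 100-bp pairs, per the labels' protocols. Low values (below 0.15 FPKM) were searched for a step shared by pairs of libraries. At most 23.7% of ratios shared 1 window of 0.04 log2 units, and read counts were not recovered. Of the members, 11 of 30 placed in the RefSeq table (Sscrofa11.1) overlap another gene, and reads there are uncertain. These are TRIM9, TRIM10, TRIM13, TRIM17, TRIM23, TRIM24, TRIM32, TRIM37, TRIM59, TRIM66 and TRIM68.

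The breeds were compared in R 4.3.3 with limma 3.58.1 on log2(FPKM + 1), two-sided, with a mean-variance trend. Tested were the 13152 genes that reached 1 FPKM in 3 or more of 6 libraries, and Benjamini-Hochberg adjustment ran over all of them. The scale understates differences of low genes, and a p-value reflects only the variation among these animals. Values per library are given for members with an unadjusted p under 0.05 or breeds apart and for the 3 most abundant of each class. TRIM34, TRIM68, RIGI and the members given only by mean or difference fall outside that rule and were picked with their values known. Members, classes and lists were chosen with earlier results of these data known. Residuals of libraries with the same number correlated at 0.28, 0.59 and 0.37 after breed means were removed, above the bound of 0.1 for treating numbers as pairs, though the labels do not say what a number marks. Alternatives were the pseudocount, filter, scaling, trend, library weights, the number as a block, and leaving out libraries. The procedure was tested on simulated data. Values of 1 gene in the partner lists are not reported here.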

Additional observations from a re-analysis of the deposited data

How the results depend on the processing

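Across 17 alternatives no TRIM gene passed the threshold (0 in each), and 15 of the 25 members tested kept the sign of their difference, among them TRIM21, TRIM23, TRIM25, TRIM36, TRIM47 and TRIM66. Leaving out the libraries numbered 2 together was an alternative chosen after seeing the data. The number of all genes past the threshold, 1 as reported, was 3 with a pseudocount of 0.1 FPKM, 0 with a minimum mean of 5 FPKM, 3 when scaled without mitochondrially encoded genes, 3 without both libraries numbered 2, and 1 to 4 when leaving out 1 library. The number of members at an unadjusted p under 0.05, 4 as reported (3 of them lower), was 2 with no filter, 1 (1 lower) with a minimum mean of 5 FPKM, where fewer members are tested, 1 (0 lower) after median scaling, 1 (0 lower) after quantile normalization and 0 (0 lower) when scaled without mitochondrially encoded genes. It ran from 0 to 4 when leaving out 1 library (0 to 4 lower), with 0 without Rongchang 1 or wild boar 3, 1 without Rongchang 2, Rongchang 3 or wild boar 1, and 4 without wild boar 2. With the replicate block it was 5 (4 lower), where 17.4% of all genes had such a p. With the block and median scaling it was 3 (1 lower), where 10.5% of all genes did (5.02% lower). For the filter, quantile, mitochondrial and single-library settings no such share was computed, so those counts cannot be set against all genes. The block changed no call of a member. The median of the members was −0.0211 after median scaling, −0.0121 after quantile normalization and −0.0211 with the replicate block and median scaling. The neuronal median ran from −0.20 to 0.10 and the antiviral one from −0.32 to −0.08 over all alternatives. The causes of these shifts were not tested.

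The 10 members whose sign turned in some alternative lay between −0.16 and 0.12 as reported. After median scaling, with or without the replicate block, the difference was 0.00597 for TRIM27, 0.133 for TRIM26, 0.051 for TRIM65, 0.0957 for TRIM46, 0.0237 for TRIM32, 0.0448 for TRIM63, 0.133 for TRIM37 and 0.12 for TRIM44. Quantile normalization gave 0.129 for TRIM26, 0.068 for TRIM65, 0.0757 for TRIM46, 0.0207 for TRIM32, 0.0766 for TRIM63, 0.0972 for TRIM37 and 0.0937 for TRIM44. Library weights gave 0.0223 for TRIM26, 0.0200 for TRIM65, −0.0218 for TRIM2, 0.00601 for TRIM46, 0.129 for TRIM63, 0.0168 for TRIM37 and 0.0497 for TRIM44. Scaling without mitochondrially encoded genes gave 0.0117 for TRIM26. Leaving out both libraries numbered 2 gave −0.0189 for TRIM2, 0.00256 for TRIM63 and 0.0311 for TRIM44. When leaving out 1 library, the differences ran, for TRIM26, from −0.108 to 0.0596, TRIM65 from −0.226 to 0.0821, TRIM9 from −0.0624 to 0.29, TRIM2 from −0.198 to 0.211, TRIM46 from −0.197 to 0.0605, TRIM32 from −0.242 to 0.0103, TRIM63 from −0.292 to 0.113, TRIM37 from −0.128 to 0.0929 and TRIM44 from −0.188 to 0.0806.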
